A study of Populus deltoides with 38 samples.

Results

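Leaves of the poplar Populus deltoides that had grown without sulfate were compared with and without cadmium (Cd). The group with Cd received 0 µM sulfate and 50 µM CdCl2, and its control received 0 µM sulfate and 0 µM CdCl2, with 3 mRNA libraries in each. All of these plants, of a strain labelled monilifera (Aiton) Eckenw, came from stem cuttings grown for 8 weeks in sand culture. They were then kept in hydroponics at their sulfate level for 12 days, followed by 21 days with or without Cd, and were 89 days old. The same Cd treatment was given at middle (100 µM) and high (1500 µM) sulfate, so that these 6 libraries were part of 18 mRNA libraries, and of 38 samples with the small RNA and degradome libraries. A library name such as +CdL1 gives the Cd treatment, the sulfate level (L, M or H) and the replicate number. Which of the 72 plants went into each library is not stated in the labels, so p-values measure the spread between libraries, which may be technical.

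The values are FPKM, a read density scaled by transcript length and by the mapped reads of each library, for 39572 loci. Loci with a mean of at least 1 FPKM over the 18 libraries, 23166 in all, were tested. The locus just inside this limit, Potri.011G007400, had a mean of 1.00041 FPKM and 0.648, 0.434 and 0.893 FPKM with Cd at low sulfate, against 0.586, 0.422 and 0.938 FPKM without. The locus just outside it, Potri.002G058900, had a mean of 0.999748 FPKM, with 1.77, 0.979 and 1.63 FPKM with Cd, and was listed at 0 in the 3 libraries without. The files give Populus gene identifiers (Potri numbers) or, for 638 loci, a locus number only. Gene names for these identifiers were not found in the sources used here. Markers of leaf and of other cell types were therefore not analysed here. Positions are those in the files, whose genome build is not given in the sources used here.

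Sulfate supply and Cd meet in leaf chemistry: plants bind Cd with glutathione and phytochelatins, thiol compounds whose sulfur comes from sulfate. miR395 is the plant microRNA known to accumulate when sulfate is short, and its known targets are ATP sulfurylases, which activate sulfate, and a sulfate transporter. A second group, miR397, miR398 and miR408, is known to accumulate when copper is short, and its known targets encode laccases, plantacyanins and superoxide dismutases that bind copper. miR1444, known in Populus, targets transcripts of polyphenol oxidases, which are also copper enzymes. A microRNA is cut from a hairpin in a longer primary transcript, so an mRNA library can record the locus that holds the hairpin as well as the transcripts that the microRNA cuts.

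Among the largest called changes with Cd at low sulfate were those of loci in or beside such hairpins and of the transcripts listed as cut by miR1444. The sequences that link the loci to the small RNAs are given first, as deposited with the small RNA files. In the mature sequences, capitals mark bases 2 to 8, the seed.
miR1444 from MIR1444c: tATTCGGTcaacgttcgagtg
miR1444a: tCCACATTcggtcaatgttcc
miR408-3p: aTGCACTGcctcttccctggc
miR398b: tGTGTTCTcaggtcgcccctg
miR395b: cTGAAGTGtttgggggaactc
The first of these differs from its hairpin at a single end base, and the seeds of both miR1444 forms differ. In the hairpins, capitals mark the stretches that the files give as mature products. The MIR1444c hairpin, also listed as MIR1444b, lies on the plus strand at chr10:12167995-12168079, and MIR1444d is listed at nearly the same place on the minus strand. The MIR1444a hairpin lies on the minus strand at chr8:9457700-9457788, the MIR408 hairpin on the plus strand at chr2:14792892-14793006 and the MIR398c hairpin on the minus strand at chr9:6766516-6766612.
MIR1444c: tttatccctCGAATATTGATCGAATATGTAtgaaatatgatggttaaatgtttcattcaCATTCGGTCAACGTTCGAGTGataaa
MIR1444a: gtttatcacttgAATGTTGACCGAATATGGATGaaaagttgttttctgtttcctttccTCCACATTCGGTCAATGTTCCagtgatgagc
MIR408: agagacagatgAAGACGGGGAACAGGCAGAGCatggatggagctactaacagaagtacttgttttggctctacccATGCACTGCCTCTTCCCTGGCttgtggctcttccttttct
MIR398c: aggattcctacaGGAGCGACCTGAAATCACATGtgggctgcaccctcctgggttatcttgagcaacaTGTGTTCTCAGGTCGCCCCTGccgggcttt

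Cd at low sulfate changed 166 of the 23166 loci (0.717%; limma, Benjamini-Hochberg adjusted p under 0.05), of which 74 (0.319%) rose and 92 (0.397%) fell. Changes of at least 2-fold on the log2(FPKM + 1) scale made up 72 of them (0.311%), 30 rises (0.13%) and 42 falls (0.181%). This count was 44 without +CdL3, 38 without −CdL2, 39 without −CdL3 and 34 with the low sulfate libraries fitted alone. At an unadjusted p under 0.05 there were 3080 loci. The rises ranged from 0.38 to 3.25 log2 units and the falls from −2.89 to −0.41. Loci that did not pass reached −5.55 and 5.54, so the called loci are not those of largest change overall. Their median level over 18 libraries was 12.9 FPKM for rises and 22.0 FPKM for falls, beside 10.2 FPKM for all tested loci. In the 166 called loci the 3 values with Cd did not overlap the 3 values without, as was also so for 21.2% of all tested loci. An exact permutation test of 3 against 3 libraries cannot go below 0.10 for any single locus, so the calls rest on the limma fit, whose spread comes from all 18 libraries. With 1 library left out the count of 166 became 93 (+CdL1), 110 (+CdL2), 73 (+CdL3), 60 (−CdL2) or 62 (−CdL3). It was 47 when the 6 low sulfate libraries were fitted alone, 30 of them shared with the 166. Replicates correlated at 0.955 to 0.970 with Cd and at 0.971 to 0.977 without, across loci. In a principal component analysis of the 6 libraries the first component (30.1% of variance) placed the libraries with Cd at 14.2 to 33.0 and those without at −32.2 to −11.4, and the second (26.9%) placed +CdL1 at −41.3 and +CdL2 at 35.2. FPKM keep no totals, so depth is unknown. From low values, a read was worth 0.35 log2 units more FPKM in +CdL2, the shallowest, than in −CdL1, and from −0.20 to 0.10 units more in the other 4 libraries. In leaf RNA, fewer cells of a type and less RNA per cell cannot be told apart.

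**Figure D1:**
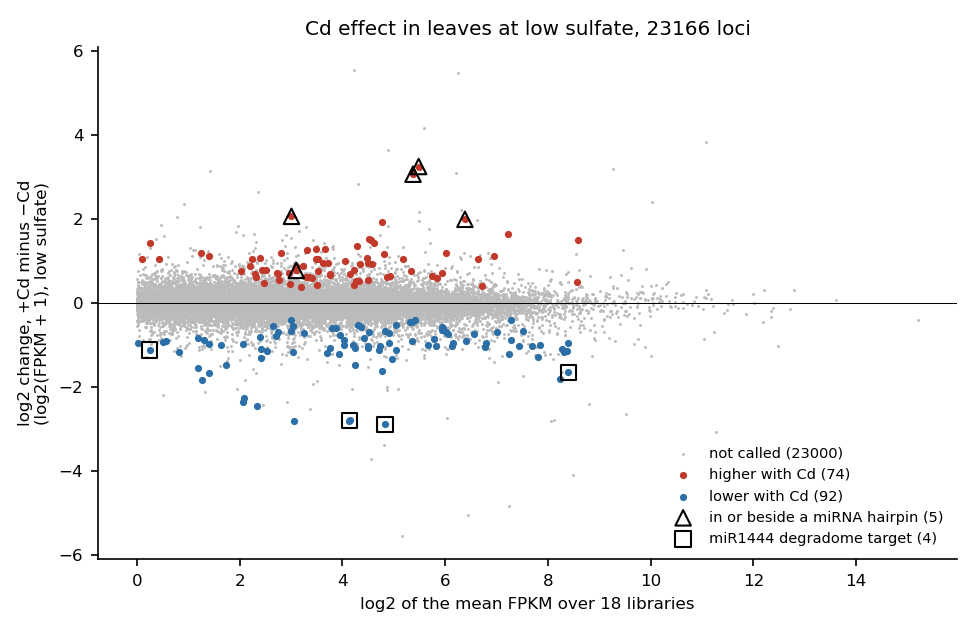
Log2 change with Cd at low sulfate (y axis, on the log2(FPKM + 1) scale) against the log2 of the mean FPKM over 18 libraries (x axis), 1 point per tested locus. The 74 loci that rose are red and the 92 that fell are blue, triangles outline the 5 loci in or beside miRNA hairpins, at 0.77 to 3.25, and squares the 4 miR1444 targets, at −2.89 to −1.12.

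Of the 297 hairpins with miRBase names on chromosomes, 116 lay in, or within 100 bases of, a tested locus, which gave 101 such loci. Cd raised 5 of these 101 loci (4.95%), beside 0.319% of all tested loci. A further look at unadjusted p under 0.05 gave 25 higher (24.8%) and 1 lower, where 5.93% of all tested loci were higher and 7.36% lower. XLOC_005717 and XLOC_005718, both listed as Potri.002G188000 at identical coordinates, count separately in the 101 and in the 25. The median change was 0.18 over the 101 loci and −0.00205 over all tested loci. These loci were grouped after their values were known, and the placement assumes that hairpin and locus positions come from the same build.

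The largest called rise was at a locus with no identifier, XLOC_023314 (chromosome 10, 12168106 to 12168900), which starts 27 bases past the MIR1444c hairpin printed above. The locus does not hold the hairpin, and its strand is not recorded in the files. Whether it belongs to the transcript of that hairpin was not tested. XLOC_023314 had 131, 158 and 143 FPKM with Cd, against 18.4, 13.7 and 11.4 FPKM without. Every library with Cd lay far above every library without, at 9.94-fold the mean, and the change was 3.25 ± 0.25 on the log2 scale (SE, as for all log2 changes given here; limma, adjusted p = 3.7e-05). XLOC_020748 (chromosome 8, 9457348 to 9457833) holds the MIR1444a hairpin and has no identifier either. It had 165, 255 and 164 FPKM with Cd, against 61.6, 45.4 and 37.6 FPKM without, a rise of 1.99 ± 0.26 (limma, adjusted p = 0.0028), with +CdL2 the highest library.

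The MIR408 hairpin lies in Potri.002G188000 (chromosome 2, 14792735 to 14793844), which the files list at 3 loci of identical coordinates, so that its reads may be split between them. The locus XLOC_005718 had 118, 139 and 142 FPKM with Cd, against 13.6, 34.4 and 6.89 FPKM without. It rose by 3.06 ± 0.54 (limma, adjusted p = 0.016), and −CdL2 stood above the other libraries without Cd. At the second locus, XLOC_005717, the values were 88.9, 71.3 and 148 FPKM with Cd and 36.3, 2.82 and 2.57 FPKM without. Here −CdL1 was the high library of the controls, and the change of 3.63 ± 0.86 did not pass (limma, adjusted p = 0.078). The third locus was below the limit for testing. The call at XLOC_005718 was lost without +CdL1, +CdL2, +CdL3 or −CdL3 and in the fit of the 6 libraries alone (limma, adjusted p up to 0.088), with changes of 2.55 to 3.64 over all alternatives.

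Potri.009G067800 (chromosome 9, 6759492 to 6766833) holds the MIR398c hairpin and had 13.0, 25.2 and 18.8 FPKM with Cd, against 3.91, 3.59 and 3.46 FPKM without. The controls had an SD of 0.23 FPKM, and the locus rose by 2.06 ± 0.28 (limma, adjusted p = 0.0035). The fifth was XLOC_033176 (chromosome 15, 3960586 to 3961205), which holds the hairpin of MIR159b, a family known to target MYB transcription factors. Its values were 16.02, 14.97 and 13.2 FPKM with Cd and 9.27, 7.88 and 7.50 FPKM without, a rise of 0.77 ± 0.12 (limma, adjusted p = 0.0065). The groups of both loci were clearly apart.

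Further hairpin loci had values of the same direction that did not pass. Potri.011G041300, 35 bases from the MIR397a hairpin, had 9.52, 13.0 and 3.67 FPKM with Cd and was listed at 0 in the 3 libraries without (limma, adjusted p = 0.10). Potri.006G099000, which overlaps the MIR395b hairpin, had 44.6, 49.2 and 33.9 FPKM with Cd, against 35.9, 5.80 and 6.45 FPKM without (1.80 ± 0.43; limma, adjusted p = 0.071), and was listed at 0 in all 12 libraries at middle and high sulfate. XLOC_005710, which holds the MIR395a hairpin, had 146, 105 and 120 FPKM with Cd, against 87.8, 60.6 and 67.3 FPKM without (0.78 ± 0.39; limma, adjusted p = 0.42). The groups did not overlap at Potri.011G041300 and XLOC_005710, as at 21.2% of all tested loci. They overlapped at Potri.006G099000, where −CdL1 lay above +CdL3.

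**Figure D2:**
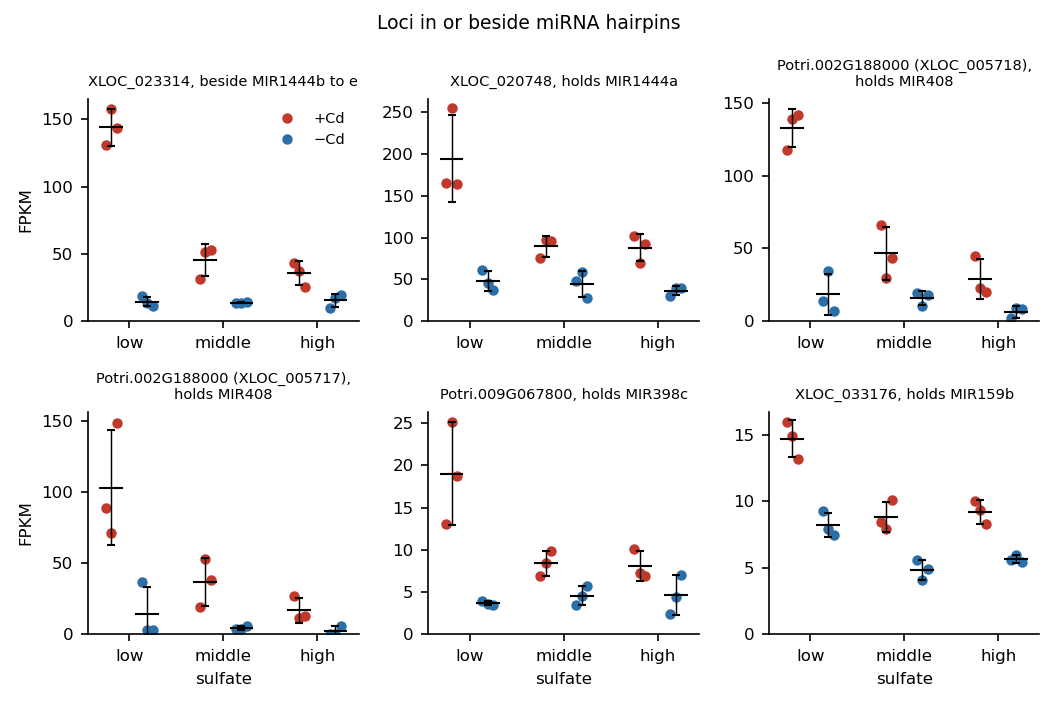
FPKM per library (y axis, linear) at low, middle and high sulfate for 6 loci in or beside miRNA hairpins, with Cd in red left of without Cd in blue. Points are libraries and bars are the mean ± SD (n = 3). With Cd, the low sulfate libraries lay above the middle and high sulfate libraries, for example at 131 to 158 FPKM in XLOC_023314.

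The small RNA libraries of the same groups gave the mature products. Their values are RPM, here relative to the miRNA reads listed for each library, and are given as a description. Whether an mRNA and a small RNA library of the same number share an RNA sample is not stated. The miR1444 family had 17431, 33305 and 42476 RPM with Cd, against 11871, 10960 and 7472 without. The miR408 family had 11644, 19389 and 13400 with Cd, against 3037, 2758 and 1556 without. For miR398 there were 2404, 5246 and 4772 with Cd and 1610, 1184 and 833 without. In these families the libraries with Cd all lay above those without. miR397 overlapped, at 287, 1236 and 891 with Cd and 350, 228 and 244 without, and so did miR159, at 55532, 39850 and 46630 with Cd and 39716, 32889 and 40538 without. miR395 lay lower with Cd, at 29118, 40348 and 61943, against 69213, 72096 and 72084 without.

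Within the miR1444 family most reads came from the sequences printed above. The product of MIR1444c had 11052, 19519 and 27880 RPM with Cd, against 6361, 5749 and 3506 without. miR1444a had 5626, 12339 and 11491 with Cd, against 5234, 4890 and 3585 without, so that both products lay higher with Cd. For miR1444a, +CdL1 came close to the controls. XLOC_023314, beside the MIR1444c hairpin, averaged 144 ± 14 FPKM with Cd at low sulfate, 45.3 ± 12 at middle and 35.5 ± 9.0 at high (SD, n = 3). The MIR1444c product had 11052 to 27880 RPM with Cd at low sulfate, 15521 to 21860 at middle and 18215 to 19346 at high.

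The transcripts that the degradome tables list as cut by miR1444 were among the largest falls. A degradome library reads the 5′ ends left by cutting, and 1 pool of 9 RNAs was made with Cd and 1 without, each over all sulfate levels, so cut sites are not specific to low sulfate. Counting sites of category 0 or 1, the strongest classes, 5 miR1444 target loci were tested and 3 fell, beside 0.397% of all tested loci. The others had few degradome reads, given below. The median was −1.66 over the 5 loci. With weaker sites counted as well, 4 of 7 fell.

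Potri.001G388800 (chromosome 1, 40664352 to 40666292) had 9.95, 2.17 and 3.86 FPKM with Cd, against 45.4, 38.6 and 36.7 FPKM without. It fell by 2.89 ± 0.36 log2 units (limma, adjusted p = 0.0021), 7.43-fold on that scale, and +CdL1 was the highest of the libraries with Cd. Potri.001G387900 (chromosome 1, 40412587 to 40414508) had 6.26, 0.936 and 1.85 FPKM with Cd, against 26.1, 21.5 and 21.5 FPKM without, and fell by 2.81 ± 0.37 log2 units (limma, adjusted p = 0.0028). In both, the libraries without Cd were close together and those with Cd spread more widely. The calls of both were lost in the fit of the 6 low sulfate libraries alone (limma, adjusted p = 0.069 and 0.087).

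Potri.001G388900 (chromosome 1, 40683040 to 40685189), the most abundant of the cut transcripts, had 88.9, 56.2 and 96.2 FPKM with Cd, against 230, 263 and 256 FPKM without. It fell by 1.66 ± 0.20 log2 units (limma, adjusted p = 0.0021), with no library of the groups near the other group. Its cut site also held the most degradome reads of the miR1444 sites, 6445 in the pool with Cd and 6061 in the pool without. The nearby Potri.001G388200 (chromosome 1, 40496378 to 40498305) had a site of category 2 only, with 1 read with Cd and 3 without. Its values were 0.505, 0.0455 and 0.230 FPKM with Cd, against 1.80, 1.14 and 2.33 FPKM without, a fall of 1.12 ± 0.18 log2 units (limma, adjusted p = 0.0077).

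The 4 loci that fell lie between 40412587 and 40685189 on chromosome 1 and are the only tested loci in the 2 runs they form. Among them lie 4 cut transcripts below the limit for testing. Potri.001G388100 had 0.393, 0 and 0.149 FPKM with Cd, against 0.374, 0.581 and 1.003 FPKM without. Potri.001G388600 had 0.462, 0.0521 and 0.132 FPKM with Cd, against 0.659, 0.671 and 0.993 FPKM without. The groups overlapped at the first of these and not at the second. Potri.001G388300 had 0.213, 0 and 0.120 FPKM with Cd, against 0.847, 0.922 and 0.830 FPKM without. Potri.001G388400 had 0.118, 0 and 0.135 FPKM with Cd, against 0.758, 0.766 and 0.795 FPKM without. At the last pair the groups did not overlap. The degradome tables list 91 reads with Cd and 134 without for each of Potri.001G387900, Potri.001G388100 and Potri.001G388800, so these transcripts share reads, and their FPKM may be divided between near-identical copies. Tested targets with category 0 or 1 sites elsewhere had few degradome reads and did not pass. Potri.008G123300, with 2 reads in the pool with Cd and none listed without, had 11.7, 13.6 and 11.4 FPKM with Cd and 12.0, 12.9 and 12.0 FPKM without (−0.01 ± 0.09). Potri.011G108300, with 10 reads with Cd and 3 without, had 13.3, 2.12 and 17.9 FPKM with Cd and 14.98, 21.6 and 9.53 FPKM without (−0.72 ± 0.83).

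Among the transcripts listed as cut by miR397, miR398 and miR408, 1 passed the test. Potri.018G047800 (chromosome 18, 4540059 to 4549192) was listed with a category 2 site of miR408, at 2 reads in the pool with Cd and none without. The locus had 43.1, 40.6 and 39.4 FPKM with Cd, against 60.8, 71.9 and 61.7 FPKM without. It fell by 0.64 ± 0.12 log2 units (limma, adjusted p = 0.022) and was the only called target of these 3 families in any category. Of the miR397 targets, Potri.016G112000 had 13.8, 9.32 and 8.98 FPKM with Cd and 14.6, 15.4 and 10.1 FPKM without (−0.30 ± 0.19), and Potri.006G097100 had 1.38, 1.07 and 1.17 FPKM with Cd and 1.15, 1.68 and 0.916 FPKM without (−0.02 ± 0.16). Their groups overlapped. Over miR397, miR398, miR408 and miR1444 together, 13 loci with sites of category 0 or 1 were tested and 3 fell, those of miR1444 named above. Of 118 loci with category 0 or 1 sites of other families, apart from miR395, none passed in limma, with 13 higher (11%) and 7 lower (5.93%) at an unadjusted p under 0.05, beside 5.93% higher and 7.36% lower of all tested loci. The median of the 118 was 0.07.

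Potri.010G081200 (chromosome 10, 10711553 to 10715080), a miR395 target, rose with Cd. It had 11.2, 11.9 and 12.8 FPKM with Cd, against 6.27, 6.30 and 4.998 FPKM without, a change of 0.92 ± 0.12 (limma, adjusted p = 0.0033). The call was kept under all 16 alternatives, with changes of 0.83 to 1.02. The other miR395 targets of category 0 did not pass: Potri.008G159000 had 32.7, 43.5 and 31.5 FPKM with Cd and 31.3, 17.8 and 15.4 FPKM without (0.76 ± 0.25; limma, adjusted p = 0.19), and Potri.002G092400 had 24.2, 19.8 and 19.7 FPKM with Cd and 15.8, 16.9 and 15.5 FPKM without (0.38 ± 0.18; limma, adjusted p = 0.38). In both, each library with Cd lay above each library without, at Potri.008G159000 by a narrow margin (31.5 against 31.3 FPKM). The groups did not overlap at 21.2% of all tested loci. The degradome tables give Potri.010G081200 75 reads with Cd and 48 without, and Potri.008G159000 76 with Cd and 49 without, at sites that near-identical copies may share.

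**Figure D3:**
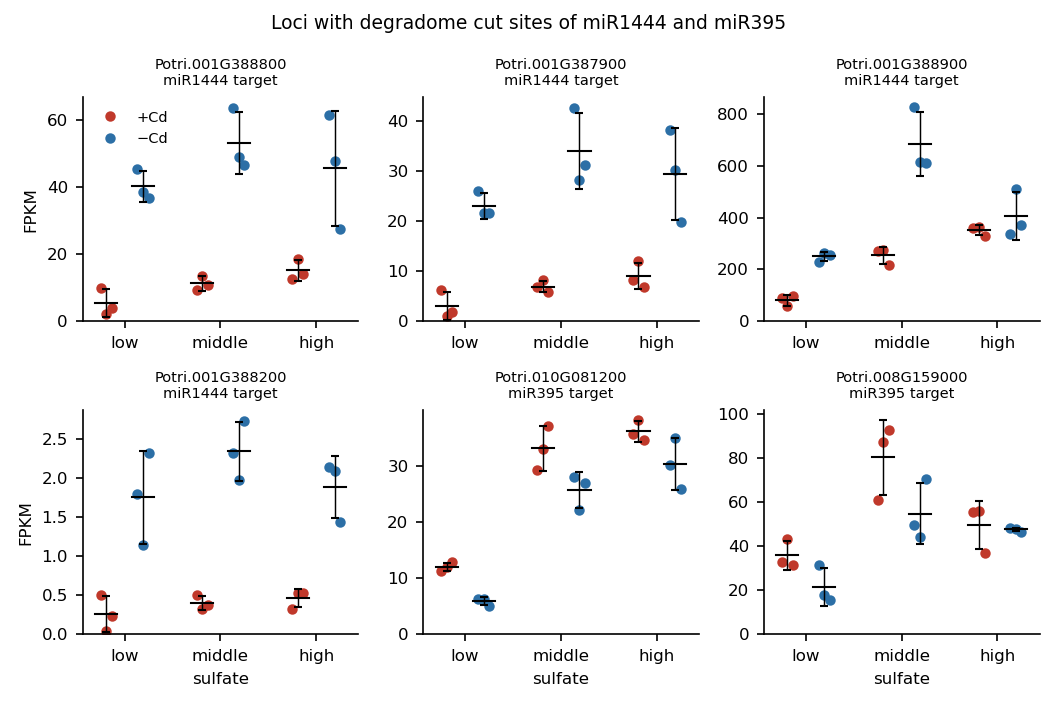
FPKM per library (y axis, linear) at low, middle and high sulfate for 4 loci cut by miR1444 and 2 cut by miR395, with Cd in red left of without Cd in blue. Points are libraries and bars are the mean ± SD (n = 3). The miR1444 targets lay lower with Cd at low sulfate, and Potri.010G081200 lay higher, at 11.2 to 12.8 FPKM.

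The other large rises were spread over the genome. Potri.017G146600 (chromosome 17, 15369799 to 15373207) had 40.9, 55.2 and 35.8 FPKM with Cd, against 7.11, 10.5 and 16.3 FPKM without (1.92 ± 0.35; limma, adjusted p = 0.019). Potri.016G083500 (chromosome 16, 6499607 to 6502186) had 237, 415 and 305 FPKM with Cd, against 105, 115 and 82.3 FPKM without (1.63 ± 0.19; limma, adjusted p = 0.0021). It was the more abundant by far, and its lowest library with Cd exceeded its highest without by more than 100 FPKM. Potri.010G236500 (chromosome 10, 21618253 to 21620267), the most abundant of the 15 largest rises, had 456, 798 and 595 FPKM with Cd, against 247, 229 and 170 FPKM without (1.49 ± 0.21; limma, adjusted p = 0.0048). At all 3 loci the highest library was +CdL2. The call at Potri.017G146600 was lost without +CdL1, +CdL2, −CdL1 or −CdL2 and in the 6 libraries alone (limma, adjusted p up to 0.087), and the calls at the other 2 in the 6 libraries alone.

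The next rises were of moderate level. Potri.017G142800 (chromosome 17, 15009802 to 15013917) had 34.0, 49.3 and 37.4 FPKM with Cd, against 16.8, 15.2 and 9.17 FPKM without (1.51 ± 0.18; limma, adjusted p = 0.0021). Potri.015G110400 (chromosome 15, 12676721 to 12683872), which shares its coordinates with another listed locus, had 20.4, 31.6 and 27.7 FPKM with Cd, against 9.996, 9.81 and 10.9 FPKM without (1.27 ± 0.16; limma, adjusted p = 0.0021). Its call held under all 16 alternatives. The remaining 6 of the 15 largest rises, Potri.002G017200, Potri.016G011400, Potri.016G048000, Potri.010G059900, Potri.006G223900 and Potri.006G038900, rose by 1.27 to 1.51. Potri.002G017200 (chromosome 2, 995020 to 1000983), which shares its coordinates with another listed locus, had 30.2, 36.0 and 31.1 FPKM with Cd, against 10.7, 11.3 and 10.1 FPKM without. Potri.016G011400 (chromosome 16, 593346 to 606057) had 39.9, 37.5 and 26.3 FPKM with Cd, against 9.46, 16.8 and 10.7 FPKM without. In the first pair of groups the libraries lay close together, while in the second +CdL3 and −CdL2 stood apart from their groups. The call at Potri.002G017200 was lost without any 1 of the 6 low sulfate libraries (limma, adjusted p up to 0.09), and that at Potri.016G011400 without +CdL1, +CdL2, −CdL1 or −CdL3 and in the 6 libraries alone (limma, adjusted p up to 0.088). Potri.006G038900 (chromosome 6, 2741632 to 2743465) had 15.7, 25.0 and 14.5 FPKM with Cd, against 6.59, 8.55 and 5.69 FPKM without. Potri.006G223900 (chromosome 6, 23594948 to 23596063) had 13.3, 23.1 and 12.9 FPKM with Cd, against 4.59, 6.49 and 6.97 FPKM without, and lost its call in 10 of the 16 alternatives, each left-out low sulfate library among them. In both, +CdL2 was the highest library, and without +CdL2, −CdL1 or −CdL3, or in the 6 libraries alone, Potri.006G038900 was not called (limma, adjusted p up to 0.10). Potri.016G048000 had the lowest level of the 6, at 1.63, 3.91 and 1.56 FPKM with Cd, against 0.209, 0.165 and 0.219 FPKM without, and was not called without −CdL2 or in the 6 libraries alone (limma, adjusted p up to 0.11).

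Several of the largest falls led to low levels with Cd. Potri.012G015000 (chromosome 12, 1466938 to 1471579) had 1.20, 0.141 and 1.54 FPKM with Cd, against 12.7, 15.2 and 9.22 FPKM without, and fell by 2.83 ± 0.44 log2 units (limma, adjusted p = 0.0073). Potri.009G012200 (chromosome 9, 2104064 to 2105349) had 3.07, 1.27 and 4.01 FPKM with Cd, against 21.6, 34.2 and 17.9 FPKM without, and fell by 2.78 ± 0.44 (limma, adjusted p = 0.0083). In both, +CdL2 was the lowest and −CdL2 the highest library, and without −CdL2 Potri.009G012200 was not called (limma, adjusted p = 0.052).

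The neighbours Potri.013G151500 and Potri.013G151400 (chromosome 13, 15548755 to 15560942 for the pair) both fell. Potri.013G151500 had 0.361, 0 and 0.977 FPKM with Cd, against 6.01, 9.13 and 5.33 FPKM without, and fell by 2.46 ± 0.34 (limma, adjusted p = 0.0046). Potri.013G151400 had 0.171, 0.232 and 0.866 FPKM with Cd, against 5.62, 8.92 and 3.61 FPKM without, and fell by 2.27 ± 0.33 (limma, adjusted p = 0.0052). On chromosome 19 the joined locus Potri.019G123000 and Potri.019G123100 had 0.106, 0 and 1.32 FPKM with Cd, against 4.89, 9.09 and 4.98 FPKM without (−2.37 ± 0.34; limma, adjusted p = 0.0053). At these 3 loci +CdL3 was the highest library with Cd and −CdL2 the highest without. Potri.019G121100 on the same chromosome had 0.188, 0 and 0.315 FPKM with Cd, against 2.90, 5.14 and 2.06 FPKM without (−1.85 ± 0.33; limma, adjusted p = 0.016), a call that was lost without +CdL1, +CdL2 or −CdL2 and in the 6 libraries alone (limma, adjusted p up to 0.094). A value listed at 0 can be a failed estimate, and for such low loci the log2(FPKM + 1) scale understates the change.

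Other falls with small p-values were smaller in size. Potri.013G031100 (chromosome 13, 2060385 to 2063625) had 199, 203 and 197 FPKM with Cd, against 391, 443 and 505 FPKM without, and fell by 1.15 ± 0.12 (limma, adjusted p = 0.0011). Its libraries with Cd had an SD of 2.94 FPKM, and those without spread more widely. Potri.016G019200 (chromosome 16, 1048899 to 1050705) had 157, 172 and 156 FPKM with Cd, against 345, 316 and 394 FPKM without, and fell by 1.11 ± 0.14 (limma, adjusted p = 0.0021). Potri.016G019100, listed at the same coordinates, also fell, at 2.29, 2.88 and 2.24 FPKM with Cd, against 4.96, 5.53 and 4.72 FPKM without (−0.81 ± 0.14; limma, adjusted p = 0.015), and reads of the 2 cannot be told apart where strand was not recorded. Potri.016G068200 (chromosome 16, 4875167 to 4879817) had 2.54, 3.43 and 3.52 FPKM with Cd, against 8.22, 7.91 and 8.51 FPKM without, and fell by 1.15 ± 0.15 (limma, adjusted p = 0.0028).

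Among the other falls Potri.005G163700 (chromosome 5, 16830884 to 16832262) was abundant, at 79.9, 64.3 and 55.9 FPKM with Cd and 202, 198 and 324 FPKM without (−1.81 ± 0.38; limma, adjusted p = 0.043). It passed in 6 of the 16 alternatives, and in none that left out a low sulfate library (limma, adjusted p up to 0.20). Potri.001G083900 had 10.6, 13.3 and 14.6 FPKM with Cd, against 47.9, 48.5 and 30.0 FPKM without (−1.61 ± 0.34; limma, adjusted p = 0.042). It too passed in 6 alternatives and in none that left out a low sulfate library (limma, adjusted p up to 0.18). Potri.013G014200, Potri.004G210600, Potri.013G007900 and Potri.007G092300 fell by 1.47 to 1.68 on the log2 scale. Potri.013G014200 (chromosome 13, 912613 to 913708) had 0.151, 0.304 and 0.596 FPKM with Cd, against 4.10, 4.22 and 1.93 FPKM without. Potri.004G210600 (chromosome 4, 21827521 to 21828762) had 0.563, 0.423 and 0.356 FPKM with Cd, against 3.28, 3.91 and 2.61 FPKM without. Both were under 1 FPKM in each library with Cd. Potri.013G014200 was not called without +CdL1, +CdL2, −CdL1 or −CdL2 or in the 6 libraries alone (limma, adjusted p up to 0.094), and Potri.004G210600 not without +CdL3 or −CdL2 (limma, adjusted p up to 0.061). Potri.007G092300 (chromosome 7, 11940196 to 11941005) had 1.30, 0.517 and 1.31 FPKM with Cd, against 3.89, 5.59 and 4.34 FPKM without, and also fell at middle and high sulfate, by 1.12 and 1.38 (limma, adjusted p = 0.0018 and 6.4e-04).

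**Figure D4:**
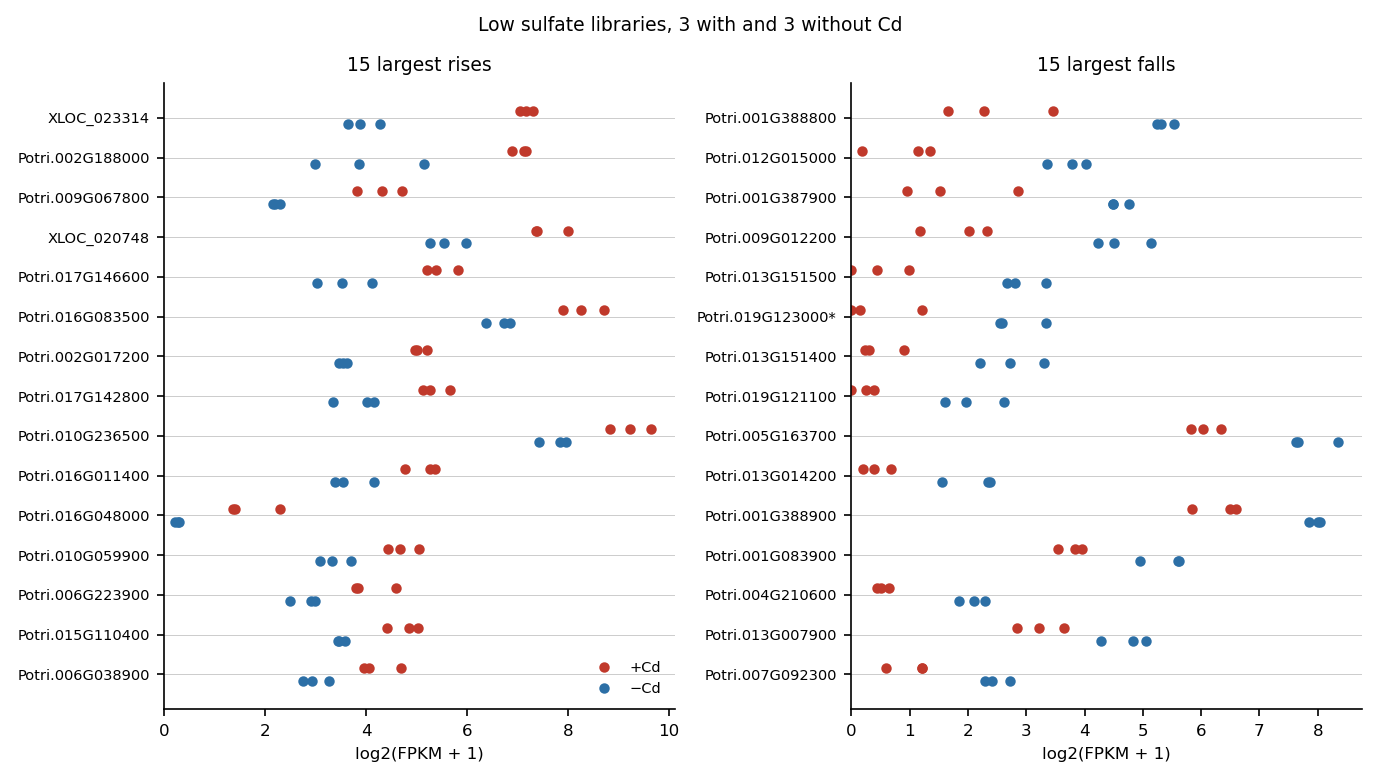
log2(FPKM + 1) per library (x axis) at low sulfate for the 15 largest rises (left) and the 15 largest falls (right) among called loci, with Cd in red above without Cd in blue, 3 libraries each. An asterisk marks a locus that joins 2 identifiers. Groups that did not overlap were a condition for choosing these 30 loci, and 21.2% of all tested loci had such groups.

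Some called loci lay close together. Within 100 kb of another locus called in the same direction were 9 of the 74 higher and 15 of the 92 lower loci. How often this holds for tested loci in general was not worked out, so these counts are not a result. The runs below were picked for their called loci, where 0.319% of all tested loci rose and 0.397% fell. On chromosome 10, 4 of the 5 tested loci between 8814273 and 8870064 rose: Potri.010G059400 (0.72 ± 0.13), Potri.010G059600 (1.18 ± 0.23), Potri.010G059800 (0.87 ± 0.16) and Potri.010G059900 (1.34 ± 0.20). Potri.010G059900 had 24.4, 31.9 and 20.7 FPKM with Cd, against 9.05, 12.0 and 7.50 FPKM without (limma, adjusted p = 0.0058). The first of these had 80.0, 80.7 and 69.4 FPKM with Cd, against 44.6, 54.8 and 40.3 FPKM without, and was the most abundant of the 4. At middle sulfate Potri.010G059800 and Potri.010G059900 were called as well. On chromosome 6, Potri.006G007200, Potri.006G007500 and Potri.006G009000 were 3 of 10 tested loci between 496359 and 598686 and fell by 0.66 to 1.11 on the log2 scale. Reads of similar neighbouring genes may be shared, which was not tested.

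The effect of Cd at low sulfate was set beside its effect at the other sulfate levels, which share no library with it. In the fit each locus has the same spread at every level, so the overlaps below are not those of independent tests. Cd changed 4820 loci at middle sulfate (20.8%; 1787 higher, 3033 lower) and 3108 at high sulfate (13.4%; 1117 higher, 1991 lower). Under quantile normalization these splits were 2958 higher and 2488 lower at middle sulfate, and 1706 higher and 1691 lower at high sulfate. The median SE was 0.146 log2 units at each level. It is the same by construction, since the fit pools the spread over all 18 libraries, and does not compare the spread of the levels. The high sulfate count was 1933 without +CdH2 and 1839 without −CdH1. Of the 74 loci that rose at low sulfate, 40 also rose at middle (7.71% of all tested loci did) and 24 at high sulfate (4.82%), 21 of them at both (2.32%). Of the 92 that fell, 51 also fell at middle (13.1%) and 40 at high sulfate (8.59%), 35 of them at both (6.53%). The median change of the 74 was 0.88 (low), 0.49 (middle) and 0.28 (high sulfate), and that of the 92 was −0.99, −0.64 and −0.46. Since these loci were picked by their call at low sulfate, the order of the medians is not a result. Neither at middle nor at high sulfate were 27 of the 74 and 34 of the 92 called, as was so for 74.6% of all tested loci.

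XLOC_023314 rose at every level, by 3.25 (low), 1.61 (middle) and 1.18 log2 units (high sulfate), and the rise was larger at low than at middle (1.64 ± 0.35; limma, adjusted p = 0.013) and than at high sulfate (2.07 ± 0.35; limma, adjusted p = 0.012). Without Cd it had 13.8 ± 0.3 FPKM at middle and 15.4 ± 4.9 at high sulfate, close to the 14.5 ± 3.6 at low sulfate (SD, n = 3). For XLOC_020748, Potri.002G188000 (XLOC_005718) and Potri.009G067800 the rise was 0.95, 1.59 and 1.30 larger at low than at middle sulfate, and these differences did not pass (limma, adjusted p = 0.14, 0.23 and 0.063). The miR1444 target Potri.001G388900 averaged 80.4 ± 21 FPKM with Cd and 250 ± 18 without at low sulfate, 254 ± 33 with and 684 ± 120 without at middle, and 352 ± 18 with and 406 ± 93 without at high sulfate (SD, n = 3). Its fall was larger at low than at high sulfate (−1.47 ± 0.28; limma, adjusted p = 0.019), a call that was lost without −CdL2 (limma, adjusted p = 0.053). Potri.001G388800 and Potri.001G387900 fell at all 3 levels, and Potri.010G081200 changed by 0.92 (low), 0.35 (middle) and 0.26 (high sulfate), with differences that did not pass (limma, adjusted p = 0.067 and 0.064).

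Tested over all loci, the Cd effect differed between low and middle sulfate at 1454 loci (6.28%) and between low and high sulfate at 420 (1.81%). Both differences use the low sulfate libraries. Of the 1454, 1123 had a difference above 0 (4.85% of tested loci) and 331 below 0 (1.43%), and under quantile normalization the split was 899 and 571. For the 420 it was 355 (1.53%) and 65 (0.281%), and 342 and 132 under quantile normalization. The count of 1454 was 868 without −CdL2 and 896 without −CdM3. The count of 420 was 141 without +CdL1, 250 without +CdL2, 147 without −CdL1 and 144 without −CdL2. It was 260 and 216 without +CdH1 and +CdH3, and 190 to 236 without −CdH1, −CdH2 or −CdH3. Loci called at low sulfate made up 32 of the 1454 and 24 of the 420, beside 0.717% of all tested loci. The low sulfate effect is part of each difference, so an excess over that share is not a result. The effect was the larger one at low sulfate in 116 of the 1454 and 42 of the 420, a share that was not worked out for all tested loci.

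At 4 of the 74 loci that rose at low sulfate, Cd lowered the level at middle and high sulfate, with both differences past the threshold. Of all tested loci, 6.53% were called lower at both of these levels, so such loci were not set apart by their number. Potri.005G154300 (chromosome 5, 14813786 to 14815682) had the smallest p for both differences. It had 16.7, 15.1 and 12.1 FPKM with Cd at low sulfate, against 7.60, 6.66 and 9.92 FPKM without, while at middle sulfate it averaged 2.63 ± 0.19 FPKM with Cd and 12.3 ± 0.98 FPKM without (SD, n = 3). The effect was 0.79 (low), −1.87 (middle) and −1.68 (high sulfate), and the low minus middle difference was 2.66 ± 0.21 (limma, adjusted p = 4.1e-05). The other 3 lie on chromosome 13 between 14751803 and 14898256, a stretch with 34 tested loci. Potri.013G143300 had 31.3, 28.3 and 23.7 FPKM with Cd at low sulfate, against 14.99, 9.55 and 16.7 FPKM without, with effects of 0.99, −1.54 and −1.31 at low, middle and high sulfate (low minus middle 2.53 ± 0.26; limma, adjusted p = 4.2e-04). The joined locus Potri.013G138800, Potri.013G138900 and Potri.013G139000 shares its coordinates with another listed locus and had 15.3, 22.2 and 21.4 FPKM with Cd at low sulfate, against 9.36, 6.95 and 10.6 FPKM without, with effects of 1.05, −1.35 and −1.30. Potri.013G141700 had 12.9, 13.1 and 10.7 FPKM with Cd at low sulfate, against 8.45, 5.46 and 7.98 FPKM without, with effects of 0.69, −0.72 and −1.25. In each of the 4 the low sulfate groups did not overlap. At low sulfate the calls of all 4 were lost without +CdL2, without −CdL2 and in the 6 libraries alone, among other alternatives, whereas the differences between sulfate levels passed in all 20 alternatives at each of the 4 loci.

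Potri.017G146600, among the largest rises at low sulfate, changed by −0.13 at middle and −0.46 at high sulfate, and its effect was larger at low than at middle sulfate (2.05 ± 0.49; limma, adjusted p = 0.023). That difference was lost in 6 of 20 alternatives, without +CdL2, +CdM2, −CdL1, −CdL2, −CdM2 or −CdM3 (limma, adjusted p up to 0.061). Potri.016G068200, which fell by 1.15 at low sulfate, changed by 0.42 at middle and 0.05 at high sulfate (low minus middle −1.58 ± 0.21; limma, adjusted p = 8.0e-04). Potri.013G007900 had 6.18, 11.5 and 8.27 FPKM with Cd at low sulfate, against 18.5, 32.2 and 27.3 FPKM without, and its effects were −1.49 (low), 0.60 (middle) and −0.40 (high sulfate) (low minus middle −2.09 ± 0.35; limma, adjusted p = 0.0032). This difference passed in all 20 alternatives, while the call at low sulfate was lost without −CdL2 or −CdL3 and in the 6 libraries alone (limma, adjusted p up to 0.099). For the loci of smallest p in the differences that were not called at low sulfate, the effect lay at the other levels. Potri.016G029200 had effects of 0.16 (low), −0.998 (middle) and −0.62 (high sulfate), Potri.017G041100 of 0.06, −1.02 and −0.59, and Potri.015G056500 of 0.09, −1.21 and −1.07. XLOC_001643, which has no identifier, was listed at 0 in 5 of the 6 low sulfate libraries and at 0.637 FPKM in −CdL3.

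In the other direction, 2 loci that fell at low sulfate rose at another level. Potri.001G466900 (chromosome 1, 50012375 to 50016204) had 6.62, 7.18 and 7.47 FPKM with Cd at low sulfate, against 9.61, 9.96 and 9.66 FPKM without (−0.41 ± 0.09; limma, adjusted p = 0.042), and rose by 0.30 at high sulfate (limma, adjusted p = 0.032). Potri.011G135900 (chromosome 11, 15975699 to 15980358) had 4.71, 4.71 and 4.84 FPKM with Cd at low sulfate, against 6.34, 7.45 and 8.74 FPKM without (−0.55 ± 0.12; limma, adjusted p = 0.047), and rose by 0.35 at middle sulfate (limma, adjusted p = 0.047). These changes were small, and both loci were chosen after their values were seen.

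**Figure D5:**
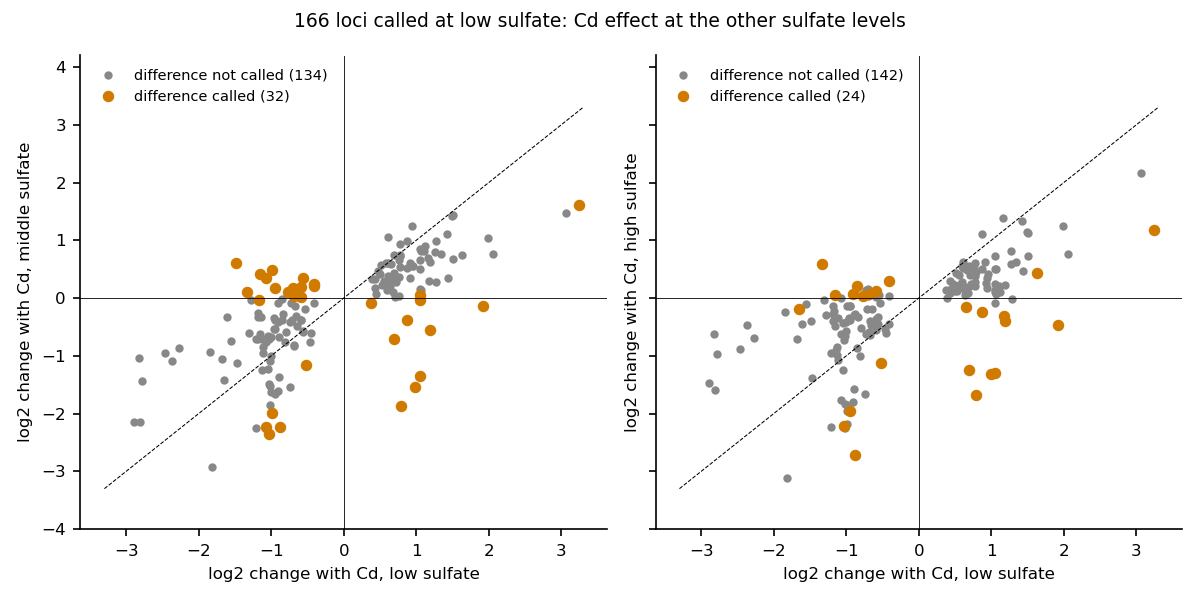
Log2 change with Cd at middle (left) and high sulfate (right), on the y axes, against that at low sulfate (x axis) for the 166 loci called at low sulfate, on the log2(FPKM + 1) scale. The dashed line marks equal effects, and orange marks the 32 loci (left) and 24 loci (right) at which the difference passed.

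Of the 39 named loci called at low sulfate, 11 were called under all 16 alternatives: XLOC_023314, XLOC_020748, Potri.009G067800, Potri.015G110400 and Potri.010G081200 among the rises, and Potri.012G015000, Potri.013G151500, Potri.001G388900, Potri.013G031100, Potri.016G019200 and Potri.016G068200 among the falls. Another 11 lost the call under 1 alternative and 10 lost it under 5 or more. No named locus called at low sulfate changed direction under these alternatives.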

How the data were processed

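mRNA values are FPKM per locus, deposited by the authors. TopHat2 2.1.1 is named in the submitters' processing notes. The build, annotation and FPKM program were not given in the sources used here. For small RNA, the authors deposited expected counts per mature sequence and hairpin, which were summed over hairpins and divided by the listed reads. For the degradome, the authors deposited read counts, an alignment score and a category score per cut site.

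Groups and replicate numbers come from the titles. log2(FPKM + 1) of loci with a mean of at least 1 FPKM was fitted with limma 3.58.1 (trend, robust) in R 4.3.3, with 6 group means over 18 libraries and 12 residual degrees of freedom, two-sided, adjusted by Benjamini-Hochberg and called under 0.05. Alternatives were other scalings, pseudocounts, filters, samples and left-out libraries. Members and lists were chosen with earlier results of these data known. Named loci were first taken from loci called at low sulfate whose groups did not overlap. These were the 15 largest rises and falls, the 5 smallest p in each direction and the degradome targets of category 0 or 1. The 5 smallest p of each difference between sulfate levels, among loci called for that difference, were named as well. Hairpin loci, neighbouring loci and other loci outside this rule were chosen after their values were seen. The gene lists written for this work could not be matched to identifiers (0 matched) and were left out.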

Additional observations from a re-analysis of the deposited data

Results flagged for a closer look

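The Cd effect differed between sulfate levels, by a test of the difference itself (limma, adjusted p under 0.05), at 14 of the named loci. Part of the named loci were named for a small p in this same test, so the count is not a result. Over all tested loci, 6.28% differed between low and middle sulfate and 1.81% between low and high sulfate. Both differences use the low sulfate libraries. Values are log2 units with SE, low minus middle and then low minus high sulfate.

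XLOC_023314, beside the MIR1444 hairpins, had 1.64 ± 0.35 and 2.07 ± 0.35 (limma, adjusted p = 0.013 and 0.012). Potri.017G146600 had 2.05 ± 0.49 and 2.38 ± 0.49 (limma, adjusted p = 0.023 and 0.027), and these calls were lost in 6 and 8 of 20 alternatives, each a left-out library (limma, adjusted p up to 0.061 and 0.07). Potri.005G154300 had 2.66 ± 0.21 and 2.47 ± 0.21 (limma, adjusted p = 4.1e-05 and 1.1e-04). The joined locus of Potri.013G138800, Potri.013G138900 and Potri.013G139000 had 2.40 ± 0.27 and 2.34 ± 0.27, Potri.013G143300 had 2.53 ± 0.26 and 2.30 ± 0.26, and Potri.013G141700 had 1.40 ± 0.20 and 1.94 ± 0.20 (limma, adjusted p up to 0.0019). For Potri.016G068200 the differences were −1.58 ± 0.21 and −1.21 ± 0.21 (limma, adjusted p up to 0.012).

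A single difference passed for Potri.013G007900, at −2.09 ± 0.35 against middle sulfate, and for Potri.016G083500 and the miR1444 target Potri.001G388900, at 1.20 ± 0.27 and −1.47 ± 0.28 against high sulfate. For Potri.016G083500 it was lost in 10 of 20 alternatives, without +CdL2, +CdL3, +CdH2, +CdH3, −CdL1, −CdL2, −CdL3, −CdH1 or −CdH3 and with a replicate block (limma, adjusted p up to 0.077). For Potri.001G388900 it was lost without −CdL2 (limma, adjusted p = 0.053). In loci not called at low sulfate, Potri.016G029200 had 1.15 ± 0.11 and 0.78 ± 0.11, Potri.017G041100 had 1.08 ± 0.12 and 0.65 ± 0.12, and Potri.015G056500 had 1.29 ± 0.15 and 1.16 ± 0.15 (limma, adjusted p up to 0.014). XLOC_001643, listed at 0 in most low sulfate libraries, had 2.72 ± 0.24 and 1.44 ± 0.24 (limma, adjusted p = 1.3e-04 and 0.012). Its size depends on the pseudocount: over 19 alternatives it ranged from 2.61 to 5.14 and from 1.32 to 3.56, and with a pseudocount of 0.1 the difference from high sulfate no longer passed (limma, adjusted p = 0.053).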

How the results depend on the processing

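The count of 166 loci was 139 to 191 under other pseudocounts, filters, scalings and priors, and 47 when the 6 low sulfate libraries were fitted alone. Leaving out single low sulfate libraries gave 60 to 140, and leaving out −CdH1, which is not in this comparison, gave 151. The count of at least 2-fold changes was 34 in the 6 libraries alone and 38 to 87 with single libraries left out. The difference from middle sulfate gave 868 to 1427 loci and that from high sulfate 141 to 384 with single libraries left out. The middle sulfate count was 3228 to 4266 and the high sulfate count 1839 to 2517. Quantile normalization changed the share of higher loci among those called at middle sulfate to 54.3%, against 37.1%, and at high sulfate to 50.2%, against 35.9%, while it moved the median change at low sulfate only to 0.0061. At low sulfate the split was 95 higher and 96 lower under it.

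Replicate numbers are shared by the groups, and the labels do not say whether they mark a pairing. At low sulfate the deviations of same-numbered libraries correlated at −0.15 to −0.05, and those of differently numbered libraries at −0.0096 to 0.11. Deviations from means of 3 libraries cannot decide whether libraries of the same number share more than the number. With a replicate block 139 loci were called at low sulfate (125 of the 166), 1309 and 242 for the differences from middle and high sulfate, and 4601 and 2840 at middle and high sulfate. Among named loci the block ended the calls of Potri.001G083900, Potri.005G163700 and Potri.006G223900 at low sulfate and the difference of Potri.016G083500 from high sulfate.

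Of the groups chosen after the data were seen, the 5 hairpin loci became 4 to 7 with single libraries left out, and the 3 miR1444 targets stayed 3, but became 1 in the 6 libraries alone and 4 of 11 without a filter on the mean. The miR395 target was called throughout. Of 1178 values for named loci under alternatives, 1051 kept their side of the threshold, 127 no longer passed and none reversed. The cause of these changes was not tested, apart from fewer samples in the fits that leave libraries out. Depth is unknown for FPKM, so no counting error can be given.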
